A study of Rattus norvegicus with 6 samples.

Results

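The histone deacetylase genes were examined in replicating and quiescent rat β-cells. A set of 10 genes was listed by symbol, and every probe of the arrays whose gene name in the files matched a listed symbol was taken. The rule found 9 of the 10 genes, with 16 probes (27 spots) among the 45598 probes of the arrays. No probe carried the name *Hdac6*. The genes found were *Hdac1*, *Hdac2*, *Hdac3*, *Hdac4*, *Hdac5*, *Hdac7*, *Hdac8*, *Hdac9* and *Hdac11*, of which *Hdac8* and *Hdac9* had 4 probes each, *Hdac4* had 2 and the others 1.

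Islets of young adult male Wistar rats were cultured overnight with the thymidine analogue EdU, dispersed and fixed, and β-cells were sorted by size, granularity and the zinc dye Newport Green. Replicating cells were EdU-positive and quiescent cells EdU-negative, with no other treatment separating the groups and no genetic change in either. Each group had 3 samples, 1 from each of 3 islet preparations pooled from 4 rats, and every preparation gave 1 sample to each group. EdU marks cells that copied DNA at any time of the labelling, so the positive cells may have been past S phase when sorted. RNA from the fixed cells was amplified before labelling with Cy3 for Agilent arrays of 1 colour, on which each spot holds a 60-base probe.

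Histone deacetylases remove acetyl groups from lysines of histones and other proteins, and at histones this generally favours closed chromatin and lower transcription. Class I enzymes (*Hdac1*, *Hdac2*, *Hdac3* and *Hdac8*) are mostly nuclear, and *Hdac1* to *Hdac3* act within large corepressor complexes. Class IIa enzymes (*Hdac4*, *Hdac5*, *Hdac7* and *Hdac9*) have little deacetylase activity of their own, bind MEF2 transcription factors and shuttle between nucleus and cytoplasm under the control of kinases and 14-3-3 proteins. Class IIb (*Hdac6*, *Hdac10*) acts largely in the cytoplasm, and *Hdac11* is the sole member of class IV. In the pancreas, inhibitors of these enzymes alter endocrine differentiation, and class IIa members are known to limit β- and δ-cell numbers during development.

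The probes decide what can be read for each gene, and those with a bearing on the results are shown 5′ to 3′ as the array files give them. Positions are on the rat build rn4, also from the files; exon and untranslated-region annotation of that build was not used here. The probe of *Hdac1* lies at chr5:148673850-148673909 on the minus strand and overlaps a probe of *Hdac1l*, an *Hdac1*-like gene, at chr5:148673823-148673882. Capitals mark the 2 bases that differ within the 33 shared positions:
Hdac1: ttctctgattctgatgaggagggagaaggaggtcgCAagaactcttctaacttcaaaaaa
Hdac1l: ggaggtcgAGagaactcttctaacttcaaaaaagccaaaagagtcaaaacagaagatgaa
The files place both probes on the same strand at overlapping positions, so it cannot be told whether they read separate transcripts. The signals of *Hdac1* and *Hdac1l* are therefore uncertain, since either transcript could bind both probes. The RefSeq table of the assembly GRCr8 also lists 18 *Hdac1* pseudogenes.

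The curated-transcript probe of *Hdac4* (chr9:91162605-91164068) and the probe of *Hdac5* (chr10:91267403-91267871), both on the minus strand, cover the same stretch of these paralogs. Their rn4 positions span 1464 and 469 bases, more than the probe itself. They are shown because *Hdac5* was read from this probe alone; capitals mark the 10 mismatches in an overlap of 32 positions, of which 22 match:
Hdac4: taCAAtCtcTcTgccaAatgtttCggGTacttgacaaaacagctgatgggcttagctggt
Hdac5: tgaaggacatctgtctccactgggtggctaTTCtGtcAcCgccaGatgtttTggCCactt

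The brightest *Hdac8* probe (chrX:90531730-90531789, minus strand) ends in a run of 10 TG units, in capitals in its last 30 bases:
Hdac8: taataagattTGTGTGTGTGTGTGTGTGTG
It shared 20 or more consecutive bases, on either strand, with 49 other probes. A TG or GT run of this length, read on the probe strand, was found in 33 of all 45598 probes (0.0724%). These 33 probes include the *Hdac8* probe shown. Their mean log2 values over the 6 arrays had a median of 16.61, against 8.09 for all probes. A log2 ratio below 0 was found for 32 of the 33 and for 24938 of all 45598 probes. The median ratios were -0.22 and -0.07. The value of this probe may therefore not be that of *Hdac8* alone.

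The brightest *Hdac9* probe (chr6:52798785-52798844, minus strand) lay 84569 bases from the nearest of the other mapped *Hdac9* probes and is shown because its ratio was the furthest from 0:
Hdac9: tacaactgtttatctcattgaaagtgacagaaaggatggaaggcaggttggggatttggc
Its accessions, of predicted transcripts, were not among those of *Hdac9* in the RefSeq table, which was also so for 3 of the *Hdac8* probes. The other 12 of the 16 probes matched an accession of their gene. The probes held 35.0% to 51.7% G or C.

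The deposited log2 values were background corrected and quantile normalized, so a difference of 1 between arrays is a doubling of the normalized signal, and values of different probes are not comparable as levels. Of the 16 probes, 13 were well above background on all 6 arrays. Genes with more than 1 probe were represented by the brightest of them (by its mean log2 value across the arrays). Spots well above background made up 84.3% to 89.8% on the replicating and 88.4% to 98.7% on the quiescent arrays. Quiescent array 2 stood apart by its outlier spots, 1583 against 252 to 299 on the others. Over all probes its Pearson's r was 0.65 with quiescent array 3 and 0.83 with quiescent array 1. Quiescent arrays 1 and 3 had 0.87, and the replicating arrays had r of 0.97 to 0.99 among themselves. In spots well above background, quiescent arrays 1 and 2 were alike (97.0% and 98.7%), and quiescent array 3 had 88.4%. As a check of the sort, all 6 proliferation genes were higher in replicating cells at an unadjusted p of at most 0.05, among them *Mki67* (log2 ratio 2.33) and *Pcna* (1.68), although *Mki67* read 12.23 on quiescent array 2 and 12.28 to 12.86 on the replicating arrays. *Ins2*, encoding insulin, had a log2 ratio of 0.42 (limma, unadjusted p = 0.269). This is the other direction from the study's qPCR, which reported insulin as significantly lower in replicating cells. The cause of this difference was not tested.

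None of the 9 histone deacetylase genes, and none of their 16 probes, differed between replicating and quiescent β-cells at the threshold. At an adjusted p under 0.05 (limma blocked by islet preparation, Benjamini-Hochberg over all probes) 0 of 16 were called, as were 0% of all probes. At an unadjusted p of at most 0.05 again 0 of 16 passed, against 5.01% of all probes higher and 4.59% lower, and the lowest unadjusted p among them was 0.0537. The smallest adjusted p of any probe on the arrays was 0.0977, so that no gene could pass the adjusted threshold. Log2 ratios, replicating over quiescent throughout, ran from -1.75 to 0.99 over the 9 genes, with 4 above 0 and 5 below and a median of -0.01. Within preparations 1, 2 and 3 the family median was 0.04, 0.10 and 0.29. The median of all probes was -0.07.

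**Figure D1:**
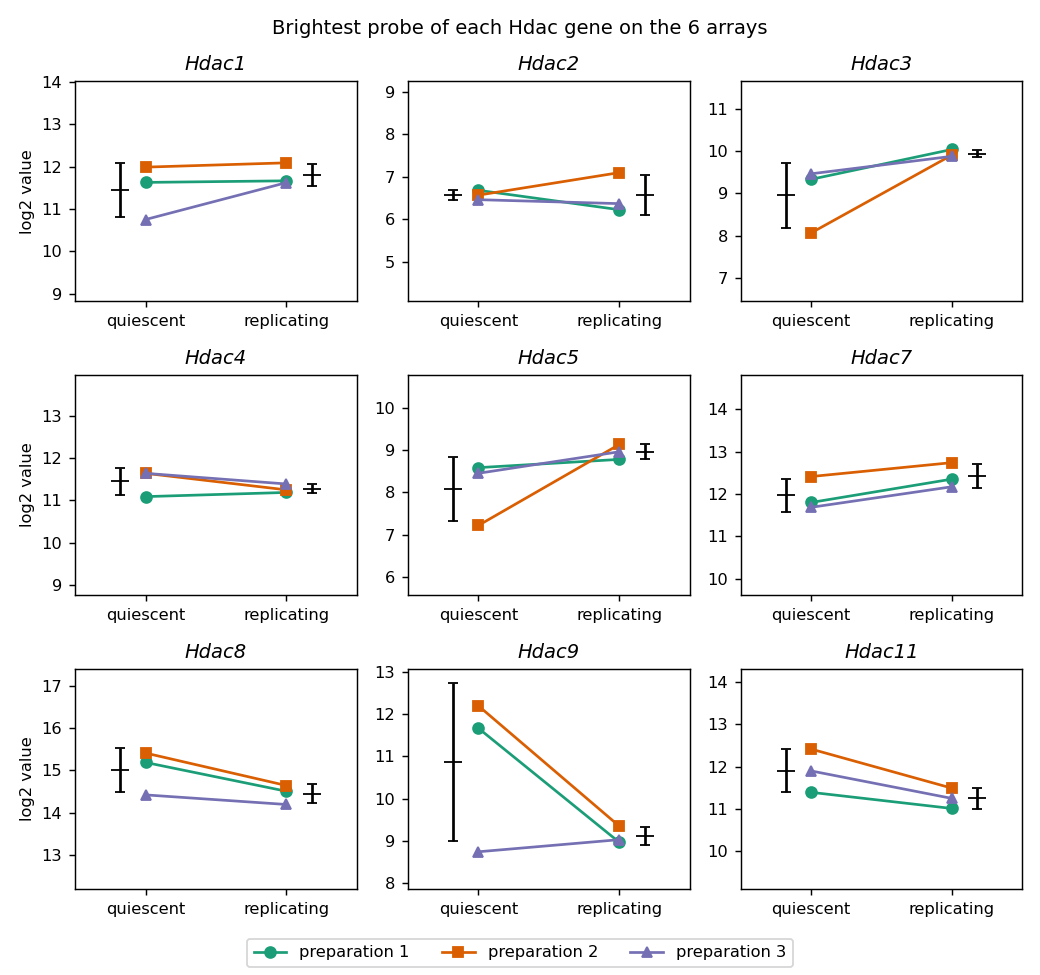
Deposited log2 values (y axis) of the brightest probe of each of the 9 genes in quiescent and replicating β-cells; lines join the arrays of 1 islet preparation, black bars give the mean ± SD of 3 arrays, and every panel spans the same number of log2 units. *Hdac3* and *Hdac5* are higher on every replicating array than on any quiescent array, and *Hdac9* is lower in replicating cells of preparations 1 and 2 but not of 3.

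The groups did not overlap for 2 of the 9 genes, *Hdac3* and *Hdac5*, both higher in replicating cells; this held for 9.01% of all probes, and the reverse for 0 of 9 genes against 7.10%. The direction was the same in all 3 preparations for 4 genes that were higher (*Hdac1*, *Hdac3*, *Hdac5* and *Hdac7*; 15.7% of all probes) and for 2 that were lower (*Hdac8* and *Hdac11*; 20.5% of all probes).

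*Hdac3*, a nuclear enzyme that works as the catalytic subunit of a corepressor complex, had the highest log2 ratio. Its probe (chr18:30857721-30857780, minus strand) read 10.04, 9.91 and 9.88 on replicating arrays 1 to 3 and 9.33, 8.07 and 9.46 on quiescent arrays 1 to 3. Every replicating value was above every quiescent one, and quiescent array 2 was the lowest of all. The means were 9.94 ± 0.09 and 8.95 ± 0.77 (SD, n = 3 each). The log2 ratio was 0.99 ± 0.41 (SE), a 1.98-fold difference with a 95% interval of -0.05 to 2.02 on the log2 scale (limma, unadjusted p = 0.0577, adjusted p = 0.475). By preparation it was 0.71, 1.84 and 0.41, and without preparation 2 it was 0.56 (limma, unadjusted p = 0.205).

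*Hdac1*, which forms the catalytic core of the SIN3, NuRD and CoREST complexes together with *Hdac2*, read 11.66, 12.09 and 11.62 in replicating cells and 11.63, 11.99 and 10.75 in quiescent cells. The groups overlapped, and the pairs of preparations 1 and 2 were nearly level. The log2 ratio was 0.34 ± 0.34 (SE; limma, unadjusted p = 0.372), with ratios of 0.04, 0.10 and 0.87 by preparation, so that it rested on preparation 3 and was 0.07 without it. The overlapping *Hdac1l* probe had a similar series of ratios, -0.0049, 0.13 and 0.76, and the other *Hdac1l* probe, at another position, had -0.17, 1.55 and 0.64.

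*Hdac2* (chr20:41186433-41186492, plus strand) was close to the detection limit and not well above background on 1 of the 3 replicating arrays. It read 6.22, 7.10 and 6.37 in replicating and 6.68, 6.57 and 6.46 in quiescent cells. The ratio changed sign between preparations, -0.46, 0.53 and -0.09, and was -0.01 overall (95% interval -0.90 to 0.89), an interval that leaves room for a near doubling in either direction. With the scanner's processed signal scaled to the 75th percentile the ratio was -1.54 (limma, unadjusted p = 0.134), below that interval, and the median of all probes moved to -0.71.

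*Hdac8*, an X-linked class I enzyme that works outside the large corepressor complexes and deacetylates cohesin, had log2 ratios below 0 on all 4 probes. The TG-run probe read 14.51, 14.64 and 14.20 in replicating and 15.19, 15.41 and 14.42 in quiescent cells, lower in every preparation but with overlapping groups, for a ratio of -0.56 ± 0.32 (SE; limma, unadjusted p = 0.139). The 2 probes of other predicted transcripts had smaller ratios, -0.21 and -0.19. The curated-transcript probe, whose rn4 position spans 21812 bases, had -0.32, made up of 0.53, -1.43 and -0.04 by preparation, and was well above background on 2 of the 3 replicating arrays. Pairs of the 4 probes had r between -0.04 and 0.95 over the 6 arrays.

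The 4 class I genes had a median log2 ratio of 0.17, with 2 above 0 and 2 below.

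Among class IIa genes, *Hdac5*, a signal-responsive repressor of MEF2, read 8.78, 9.13 and 8.96 in replicating and 8.58, 7.22 and 8.45 in quiescent cells. No replicating value was as low as any quiescent value, and quiescent array 2 was again the lowest. The means were 8.95 ± 0.18 and 8.08 ± 0.75 (SD, n = 3 each), and the log2 ratio was 0.87 ± 0.45 (SE), 1.83-fold, with a 95% interval of -0.27 to 2.01 (limma, unadjusted p = 0.107, adjusted p = 0.477). By preparation the ratio was 0.19, 1.91 and 0.51. Without preparation 2 it was 0.35 (limma, unadjusted p = 0.412).

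*Hdac7* (chr7:136501145-136501204, minus strand), which represses MEF2 targets in several lineages, was the most even of the family across preparations. It read 12.35, 12.74 and 12.17 in replicating and 11.80, 12.41 and 11.69 in quiescent cells. The replicating value was above its own quiescent partner in every preparation, by 0.55, 0.33 and 0.49, although the groups overlapped. The log2 ratio was 0.46 ± 0.30 (SE), with a 95% interval of -0.32 to 1.23 (limma, unadjusted p = 0.193).

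*Hdac4* gave opposite signs on its 2 probes, neither past the threshold. The brighter probe (chr9:91143426-91143485, a predicted transcript) read 11.19, 11.25 and 11.39 in replicating and 11.09, 11.64 and 11.64 in quiescent cells, a ratio of -0.18 (95% interval -0.98 to 0.62). The curated-transcript probe shown above read 7.17, 7.08 and 7.72 against 6.92, 6.45 and 7.59, a ratio of 0.34 that was above 0 in each preparation (95% interval -0.47 to 1.14). Their r over the 6 arrays was 0.02.

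*Hdac9*, a class IIa gene with many transcript forms, some without the catalytic domain, had the lowest ratio of the family on 1 probe only. The brightest probe read 8.97, 9.35 and 9.03 in replicating cells, and 11.67, 12.19 and 8.75 in quiescent cells. The replicating arrays were close together, and 2 of the 3 quiescent arrays stood well above them while the third lay below. The log2 ratio was -1.75 ± 0.70 (SE; limma, unadjusted p = 0.0537, adjusted p = 0.475), or -2.69, -2.84 and 0.29 by preparation. Without preparation 3 it was -2.77 (limma, unadjusted p = 0.00155, adjusted p = 0.105). In that fit 5628 of all 44661 probes were lower at an unadjusted p of at most 0.05.

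The other *Hdac9* probes had ratios nearer to 0. The second probe, without a position in the files, had a ratio of 0.47 (0.60, 0.95 and -0.13 by preparation). The curated-transcript probe (chr6:52714157-52714216, minus strand) had -0.10 (-0.38, -0.27 and 0.35), with the same signs by preparation as the brightest probe but smaller values in preparations 1 and 2. The dimmest (chr6:52695274-52695333, minus strand) was not well above background on any replicating array and was so on 2 of 3 quiescent arrays. Its ratio of -0.74 (limma, adjusted p = 0.523) was -0.09, -2.07 and -0.06 by preparation and so rested on preparation 2. On that probe quiescent array 2 read 8.08 and the other 5 arrays 5.97 to 6.10. Pairs of the 4 probes had r between -0.52 and 0.84.

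The 4 class IIa genes had a median log2 ratio of 0.14, again with 2 above 0 and 2 below.

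**Figure D2:**
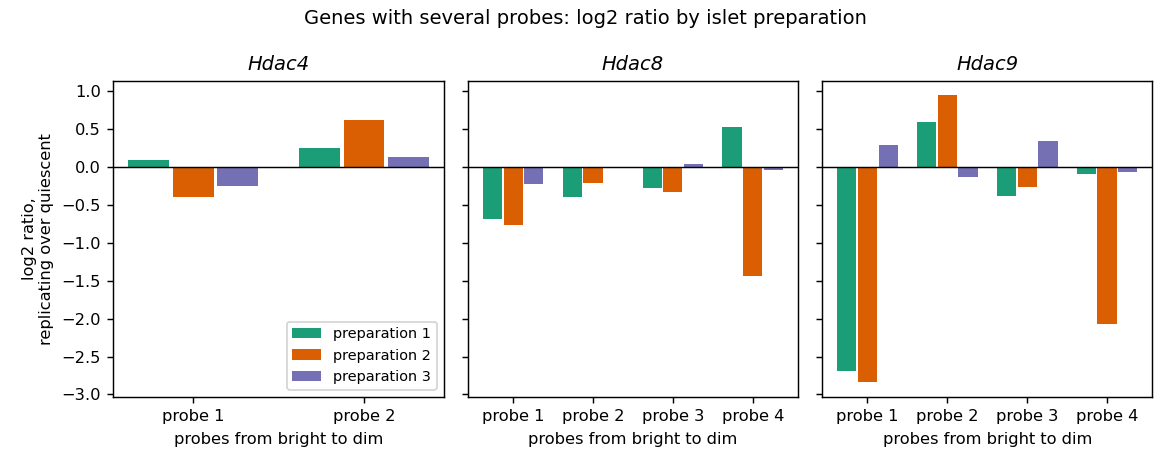
Log2 ratios, replicating over quiescent, of every probe of the 3 genes with several probes (x axis, from the brightest to the dimmest probe), with 1 bar per islet preparation. The brightest *Hdac9* probe is near -2.7 to -2.8 in preparations 1 and 2, and the third probe has the same signs by preparation at smaller sizes in preparations 1 and 2.

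*Hdac11* (chr4:125343290-125343349, plus strand), the class IV enzyme, known for removing long-chain fatty-acyl groups as well, was read from 10 spots. The values were 11.01, 11.49 and 11.25 in replicating and 11.39, 12.41 and 11.90 in quiescent cells. The replicating value was below its partner in each preparation, with ratios of -0.38, -0.92 and -0.65, and the highest replicating value overlapped the lowest quiescent one. The log2 ratio was -0.65 ± 0.32 (SE; 95% interval -1.46 to 0.16; limma, unadjusted p = 0.0931, adjusted p = 0.475).

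Of class IIb, *Hdac6* was a listed gene for which no probe carried the name, and *Hdac10* was not listed. A probe at chrX:26605809-26605986 (plus strand), named in the files by an Ensembl transcript only, is described there as *Hdac6*, a tubulin deacetylase; it was noticed after its values were seen:
Hdac6: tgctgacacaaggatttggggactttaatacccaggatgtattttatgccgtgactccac
It read 8.96, 9.15 and 9.35 in replicating and 7.61, 6.55 and 8.66 in quiescent cells. Every replicating value was above every quiescent one. The log2 ratio was 1.55 ± 0.46 (SE), 2.93-fold (95% interval 0.38 to 2.73 on the log2 scale; limma, unadjusted p = 0.0192, adjusted p = 0.475), or 1.35, 2.61 and 0.69 by preparation. Without preparation 1 it was 1.65 (limma, unadjusted p = 0.0789) and without preparation 2 it was 1.02 (limma, unadjusted p = 0.0419).

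*Hdac10*, a polyamine deacetylase that was not among the listed genes, read 7.05, 7.11 and 7.34 in replicating cells, and 6.97, 11.63 and 7.92 in quiescent cells. Its ratio of -1.67 rested on quiescent array 2, with 0.08, -4.51 and -0.58 by preparation (limma, unadjusted p = 0.135).

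**Figure D3:**
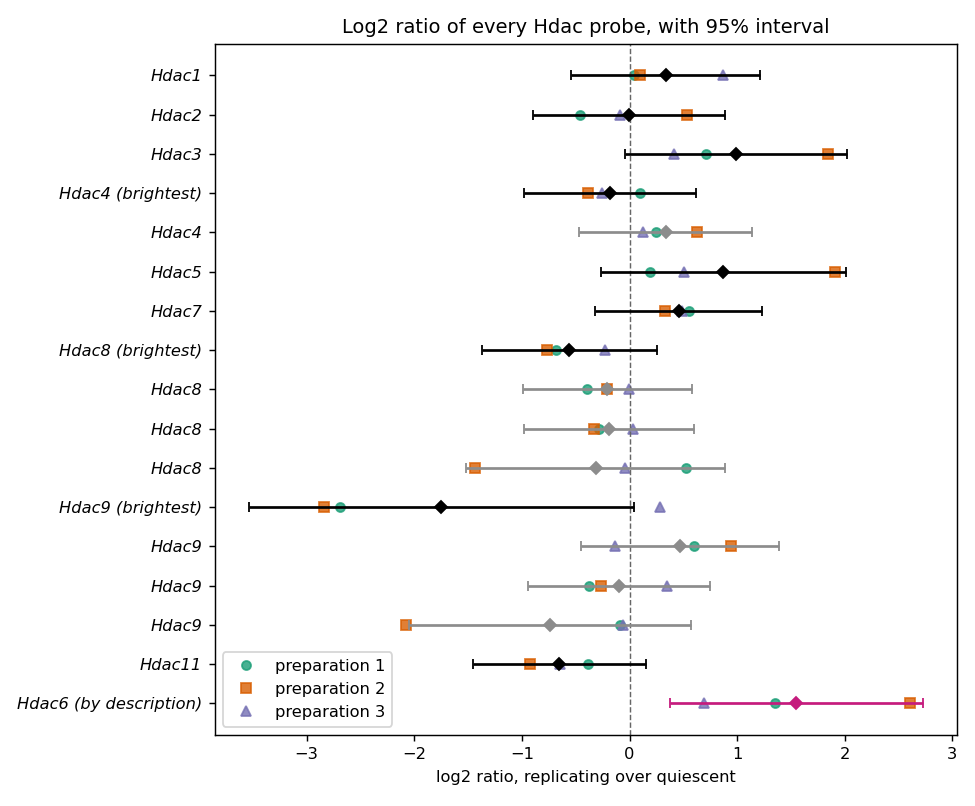
Log2 ratio, replicating over quiescent (x axis), of the 16 probes and of the probe described as *Hdac6*; diamonds and bars are the limma estimate and its 95% interval, black for the brightest probe of a gene and grey for its other probes, and coloured symbols are the 3 islet preparations. All 16 intervals of the family include 0, and that of the *Hdac6* probe runs from 0.38 to 2.73.

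Over the 6 arrays *Hdac3* and *Hdac5* had an r of 0.97, which was 0.75 over the 5 arrays without quiescent array 2. *Hdac8* and *Hdac9* had 0.96 on their brightest probes, *Hdac1* and *Hdac7* 0.84, and *Hdac3* and *Hdac11* -0.89. The arrays share preparations, and quiescent array 2 held the lowest or highest value of both genes in these pairs except *Hdac1* and *Hdac7*. *Hdac5* was the member that was also measured by qPCR in the study, which reported it as higher in replicating cells. The genes most like *Hdac5* were therefore sought among 17158 named genes well above background on all arrays. They were *Gdf15*, a secreted stress-response factor (r = 0.996), *Slc1a3*, a glutamate transporter (0.994), and *Gbp5*, an interferon-induced GTPase (0.992). As the highest of 17158 correlations over 6 arrays, these r were bound to be close to 1. Without quiescent array 2 they were 0.970, 0.956 and 0.959, on arrays that had also served to choose the genes. All 3 genes were lowest on quiescent array 2, and their log2 ratios were 0.63, 0.43 and 0.73, none at an unadjusted p of at most 0.05.

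The partners of the deacetylases were followed in 11 lists. Of their 85 genes with a probe, 7 were higher and 1 was lower in replicating cells at an unadjusted p of at most 0.05, against 6.22% higher and 3.06% lower of all named genes by their brightest probe. Their adjusted p was 0.475 in every case. The median log2 ratio of the 85 genes was 0.28, while that of all named genes was 0.02. Taken by preparation, the medians of the 85 genes were 0.40, 0.69 and -0.08.

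The gene of these lists with the lowest p was *Hat1*, a cytoplasmic acetyltransferase of newly made histone H4. It read 10.40, 10.30 and 10.54 in replicating and 7.92, 6.30 and 9.15 in quiescent cells, and its groups did not overlap. Its log2 ratio was 2.62 ± 0.56 (SE; limma, unadjusted p = 0.00497), with 2.48, 3.99 and 1.39 by preparation. It was the only gene past the threshold among the 10 measured acetyltransferases, whose median ratio was -0.03. It stayed past the threshold without each preparation in turn, at unadjusted p of 0.0300, 0.00289 and 0.00293 (limma).

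In the corepressor complexes, *Sap30*, a small subunit of SIN3, was higher by a log2 ratio of 2.15 (2.12, 3.90 and 0.43 by preparation; limma, unadjusted p = 0.0260). *Sap130*, another SIN3 subunit, was lower, with a log2 ratio of -1.30 (limma, unadjusted p = 0.0225). The other 11 of 13 SIN3 genes did not pass. *Rbbp7*, a histone-binding subunit of SIN3 and NuRD, was higher by 1.69 and its paralog *Rbbp4* had 0.65, not past the threshold. None of 11 other NuRD genes passed, with a median of 0.58.

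*Kdm1a*, the histone demethylase of CoREST, was the most even of these across preparations. It read 12.51, 12.42 and 12.27 in replicating and 11.54, 11.50 and 11.35 in quiescent cells, for ratios of 0.97, 0.92 and 0.92 and a log2 ratio of 0.94 ± 0.30 (SE; limma, unadjusted p = 0.0255). *Hmg20b*, another CoREST subunit, was higher by 1.41, and the other 7 of 9 CoREST genes did not pass.

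Of the genes that act on class IIa enzymes, the kinase *Camk1* was the only 1 of 15 to pass (log2 ratio 1.21), and *Ywhah*, a 14-3-3 protein that can hold these enzymes in the cytoplasm, was the only 1 of 7 (2.28, with 1.64, 4.21 and 0.99 by preparation). None of the 4 *Mef2* genes passed. There were also 0 of 7 sirtuins, the NAD-dependent class III deacetylases, 0 of 3 MiDAC genes and 0 of 4 BET readers of acetylated lysine past an unadjusted p of 0.05 (limma), and 0 past the adjusted threshold.

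With 1 preparation left out, 1 of these 8 partner genes, *Hat1*, passed in every case, and the other 7 each failed to pass at least once. The number of all probes that passed differed widely between these fits. Without preparation 1, 515 of 44653 probes were higher and 63 lower, and without preparation 2, 1549 and 842 of 45588. Without preparation 3 these numbers were 5092 and 5628 of 44661. Leaving out preparation 1, the unadjusted p (limma) rose above 0.05 for *Sap30* (0.0949), *Rbbp7* (0.121), *Hmg20b* (0.159), *Kdm1a* (0.159), *Camk1* (0.135) and *Ywhah* (0.0501), while the log2 ratios of the first 5, 2.16, 1.69, 1.37, 0.92 and 1.13, stayed close to those over all 3 preparations and that of *Ywhah* was larger. Leaving out preparation 2, it did so for *Sap130* (0.0594), *Rbbp7* (0.0735), *Hmg20b* (0.121) and *Camk1* (0.0601), with log2 ratios of -0.97, 0.98, 0.81 and 0.94, all nearer to 0. *Sap30* and *Ywhah* still passed there, with ratios of 1.27 and 1.32. Leaving out preparation 3, it did so for *Sap130* (0.0752) and *Kdm1a* (0.0655), at ratios of -1.23 and 0.95, and *Sap30*, *Rbbp7*, *Hmg20b* and *Ywhah* had larger ratios of 3.01, 2.38, 2.03 and 2.92. The ratio of *Kdm1a* was 0.92 to 0.95 in all 3 cases.

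**Figure D4:**
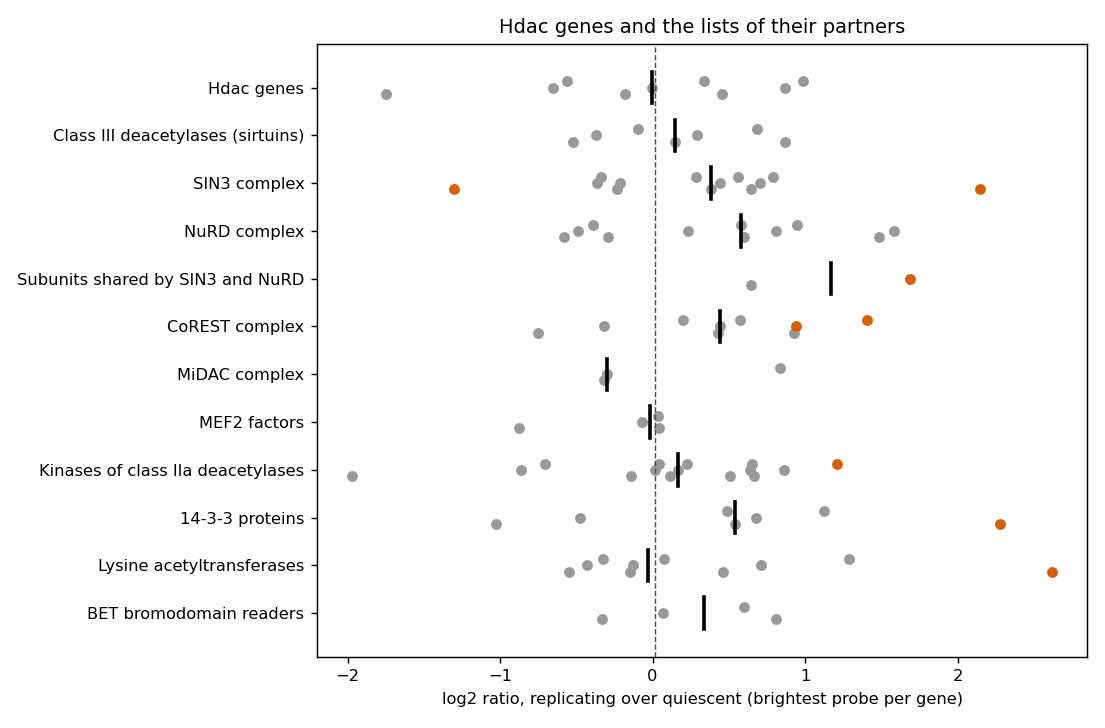
Log2 ratios, replicating over quiescent (x axis), of the brightest probe of each gene in the deacetylase family and the 11 partner lists; orange points have an unadjusted p of at most 0.05 (limma), black lines are list medians and the dashed line is the median of all named genes, 0.02. The deacetylase genes lie on both sides of 0, with a median of -0.01, and 8 of the 85 partner genes are orange.

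Markers of other cells also differed between the groups, and in these samples fewer cells of a type and less RNA per cell cannot be told apart. Of 6 α-cell markers 3 were higher in replicating cells at an unadjusted p of at most 0.05, with *Gcg* (glucagon) at a log2 ratio of 2.39, and the summed linear signal of the list was 22649 to 90650.2 on replicating and 5781 to 17573 on quiescent arrays. Of 7 mesenchymal and stellate markers 3 were higher (*Col3a1* by 3.04), with sums of 12917 to 37518 against 4487 to 6335. Higher were also 2 of 4 δ-cell markers (sums of 1977 to 2802 against 1757 to 3942), 1 of 2 PP-cell markers (4507 to 9127 against 2436 to 3792), 2 of 6 acinar markers (7589.5 to 83033 against 3715 to 42239.5) and 1 of 6 leukocyte markers (4773 to 6394 against 2627 to 5969.8). Of 6 endothelial and 4 duct markers 0 were higher or lower at that p (limma; 0 at the adjusted threshold). *Mafa*, a β-cell transcription factor, was lower, with a log2 ratio of -1.01, and the only 1 of 9 measured β-cell markers past the threshold, and 8 of them summed to 271162 to 358105 on replicating and 175298 to 411400 on quiescent arrays. No marker was listed at 0, as the values carry an offset. The part of these cells in the ratios of the deacetylases and their partners was not tested.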

How the data were processed

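Microarray signals of 6 samples were analysed. The authors scanned the arrays and deposited Feature Extraction intensity values per spot, together with log2 values; these matched normexp background correction with an offset of 50 and quantile normalization computed here from the deposited intensity to within 0.000245, and each column had a median of 8.32. The deposited log2 values were used. Control spots were left out, outlier-marked spots (252 to 1583 per array) were treated as missing, and repeat spots of 1 probe were averaged; no member lacked a value on any array. No spot was saturated. All arrays lay on 1 slide.

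Each of 45598 probes was tested with limma 3.58.1 (lmFit and eBayes, R 4.3.3; files read with data.table, version 1.17.8) in a paired model with a term for islet preparation, which the study's methods also name, and Benjamini-Hochberg adjustment over all probes. The pairing comes from the design, in which both groups share each preparation; the deviations from the group mean correlated within pairs at r of 0.0561, 0.242 and 0.258. On simulated data for this comparison (44652 probes, 200 changed) 90% of changed probes had p of at most 0.05, as did 5.887% of unchanged ones. The changed probes were given log2 ratios further from 0 than those of the histone deacetylase genes, -1.75 to 0.99. How often log2 ratios as small as those of the histone deacetylase genes would pass was not tested. Partner and marker genes were named by RefSeq accession (21109 probes by systematic name, 2754 by another accession) or file name (21735).

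The members and lists were chosen with earlier results of these data known. From each list, genes with an unadjusted p of at most 0.05 are named, at most 4 per list and direction. A further list of partner genes is not reported here. The number of arrays limits the precision. Other settings were the main values recomputed from the deposited intensities, normexp offsets of 0 and 16, scaling to the 75th percentile and cyclic loess. Further settings were a filter on dim probes, retained outlier spots, an unpaired model, a variance trend, the median of a gene's probes and each preparation left out.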

Additional observations from a re-analysis of the deposited data

How the results depend on the processing

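No histone deacetylase gene was higher at an unadjusted p of at most 0.05 under any of the 14 alternative settings. The number lower, 0, became 1 (*Hdac9*) with a normexp offset of 16, with normexp and 75th-percentile scaling, with cyclic loess and with dim probes left out. It was 2 with a variance trend (*Hdac9* and *Hdac8*), and 0 to 1 with a preparation left out. At that p 2093 of all 45598 probes were lower in the main fit. This count was 2446 with the offset of 16, 5862 with normexp and 75th-percentile scaling and 3256 with cyclic loess. With a variance trend it was 3108, and with dim probes left out 2047 of 39116. Without the replicate block the fit called no member, and 99 of all probes passed the adjusted threshold in place of 0; this number was 719 with normexp and 75th-percentile scaling, 204 with cyclic loess, 61 with a variance trend and 0 to 84 with a preparation left out. The median ratio of the family, -0.01, ran from -0.0764 to 0.219 with a preparation left out and was 0.34 when the curated-transcript probe stood for each gene, an alternative chosen after seeing the data, as was adding the *Hdac6* probe, which raised the number higher to 1. Taking the median over probes turned *Hdac4* to 0.0770 and *Hdac9* to 0.0579, and the curated probe turned *Hdac4* to 0.34. *Hdac2* ran from -0.28 to 0.22 with a preparation left out, above 0 without preparation 1 (0.22) and without preparation 3 (0.04), and was -1.54 with the processed signal and -0.49 with normexp and 75th-percentile scaling. The cause of these shifts was not tested. The 75th-percentile scalings moved the median of all probes to -0.71 (processed signal) and -0.39 (normexp); relative to it the family median was 0.68 and 0.33. *Hdac1*, *Hdac3*, *Hdac5* and *Hdac7* had ratios above 0 and *Hdac8* and *Hdac11* below 0 in all 14 alternatives. The 14 are not separate tests of direction, as the main values recomputed from the deposited intensities are counted among them. An unpaired model, a variance trend, the filter on dim probes and retained outlier spots also leave these ratios unchanged and alter only their p. The median over a gene's probes does so for all of these genes but *Hdac8*, as the others had 1 probe each. The *Hdac6* probe passed in 12 of 14, not with the processed signal or without preparation 1, and *Hat1* in 14 of 14. The number of partner genes higher was at most 2 in any list and setting. Over the lists of partners, proliferation genes and cell markers together, 88 of 588 counts moved by over 1.5 times or to or from 0.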
